A study of Homo sapiens with 32 samples.

Results

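The miRNAs mir-425 and mir-191 are encoded by 2 hairpins in the first intron of DALRD3, and their rows were taken by name from a table of 1513 miRNA precursor rows, so that 2 of 1513 rows are described here. The pair was chosen by row name and shared intron, with no limit on any value, but with earlier fold changes of these libraries in view, so the members' knockdown and deletion values count as used in that choice. The p-values below, adjusted over all rows tested, describe these clones and are not independent evidence. Small RNA was sequenced from 293T cells, an easily transfected human embryonic kidney line with the SV40 large T antigen. The 32 libraries came from 8 clones, with clones 52, 55, 57 and 67 of wild-type genotype and clones 30, 34, 42 and 43 carrying DGCR8 delta103-126Q, a prime-edited allele that lacks the reported binding site of ERH. Every clone was transiently transfected with control shRNA 1, control shRNA 2, shERH_1 and shERH_2, selected with puromycin and sorted on day 5 for the vector's fluorescent marker. All 4 groups (2 genotypes by 2 shRNA arms of 4 clones each) therefore carry an shRNA vector, and clones can differ in more than the edited locus. In libraries from bulk cells, fewer cells that express a miRNA and less of it per cell cannot be told apart.

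DGCR8 recognises the hairpins of primary miRNA transcripts and, with the nuclease DROSHA, forms the Microprocessor that cuts them out. ERH is a small dimeric protein that binds DGCR8 and is known to help the Microprocessor with poor hairpins that lie beside a better one in the same transcript. DALRD3 itself encodes a protein that takes part in the methylation of arginine tRNAs. Because mir-425 and mir-191 lie in the same primary transcript, their ratio within a library compares 2 products of 1 gene and needs no scaling. miR-191 is abundant in many tissues, and both miRNAs are often used as reference miRNAs in expression assays.

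The hairpins and the mature miRNAs listed for them are shown because the contrast between these 2 neighbours carries the results. They are given 5′ to 3′ as in RefSeq (GRCh38.p14), and a hairpin entry was matched for both rows, at 1 locus each. In the hairpins, capitals mark the listed mature products, miR-425-3p in the first and miR-191-5p and miR-191-3p in the second. The RefSeq source used here had no entry for miR-425-5p, so that product is not marked and its seed was not compared.
MIR425 hairpin: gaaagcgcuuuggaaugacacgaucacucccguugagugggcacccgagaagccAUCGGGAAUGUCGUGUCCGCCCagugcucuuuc
MIR191 hairpin: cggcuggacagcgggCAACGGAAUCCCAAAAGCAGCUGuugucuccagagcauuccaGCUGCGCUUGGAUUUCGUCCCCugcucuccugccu
In the mature sequences, capitals mark the seed, bases 2 to 8, which pairs with target mRNAs.
miR-191-5p: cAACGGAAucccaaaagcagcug
miR-191-3p: gCUGCGCUuggauuucgucccc
miR-425-3p: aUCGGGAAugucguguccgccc
No seed is shared among these 3 listed products, and 0 other mature miRNAs of the 2370 in the RefSeq table have any of these seeds. The deposited rows hold whole precursors, so the arms cannot be told apart in the counts.

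Both hairpins lie on the minus strand of chromosome 3 (GRCh38.p14), MIR191 at 49020618 to 49020709 and MIR425 at 49020148 to 49020234. MIR191 therefore comes first in the transcript, and 383 bases separate the 2 hairpins. In GENCODE release 29 (GRCh38) they lie together in intron 1 of each of the 4 DALRD3 transcripts that span them, 1 of which has this intron at 49018319 to 49020845. MIR191 also lies opposite intron 1 of a transcript of NDUFAF3, a gene for an assembly factor of respiratory complex I, on the plus strand. The genome build behind the counts is not given in the sources used here. Folded alone with RNAfold, the MIR425 hairpin had a minimum free energy of -34.5 kcal/mol over 87 bases, with 58 bases paired and a terminal loop of 12 bases. The MIR191 hairpin reached -46.8 kcal/mol over 92 bases, with 66 bases paired and a loop of 7 bases. Per base these are -0.40 and -0.51 kcal/mol, so the predicted fold of MIR425 is the weaker of the 2. Over 574 hairpins of the rows tested the median was -0.47 kcal/mol per base. Of these hairpins 74.6% had a more negative value than MIR425 and 38.2% a more negative value than MIR191. These are predictions for the annotated hairpins without flanking sequence.

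Libraries held 1318923 to 6222790 miRNA counts and 9139 to 33090 spike-in counts, and members were far above the counting floor, with 2307 to 15256 counts for mir-425 and 10797 to 65859 for mir-191. The mir-191 row supplied 0.77% to 2.11% of a library's miRNA counts and ranked between 10th and 31st of the rows, while mir-425 supplied 0.143% to 0.632% and ranked between 29th and 72nd. Counts were also compared as CPM, counts relative to the library total, scaled by TMM, a trimmed mean that centres each library on the bulk of the miRNAs. Of 11 rows that mark blood cells, hepatocytes, muscle, neurons, endothelium or mesenchymal cells, mir-126 was the most abundant, at 0.249% to 0.676%. Between libraries the blood-cell rows mir-142 and mir-223 ran from 0.0077% to 0.316% and from 0.00049% to 0.040%. The sum of the 11 overlapped between the 4 groups, at 0.38% to 0.716% in wild-type and 0.30% to 0.933% in deletion controls and, with ERH shRNAs, 0.325% to 0.668% in wild-type and 0.293% to 0.657% in deletion clones, and mir-206, mir-150 and mir-145 reached 0 in some libraries. Their part in the results was not tested. Neither the ERH transcript nor the edited allele is measured by a miRNA table, so labels were not checked against them.

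The level of mir-425 fell in every clone when ERH was targeted, while mir-191 changed far less. With the 2 libraries of an arm summed, mir-425 in wild-type clones went from 4598, 4397, 7482 and 7822 CPM under control shRNAs (clones 52, 55, 57 and 67) to 2313, 1684, 1976 and 2230 CPM under ERH shRNAs. The 2 arms did not overlap, and on this CPM scale clones 57 and 67, which started highest, ended at the level of the other 2. Relative to spike-in counts, mir-425 in clones 57 and 67 started at 0.620 and 0.682 and ended at 0.339 and 0.439. Clones 52 and 55 went from 0.498 and 0.592 to 0.250 and 0.287 relative to spike-in counts. In deletion clones 30, 34, 42 and 43 mir-425 went from 3744, 3472, 4158 and 4474 CPM to 2212, 1376, 2077 and 2330 CPM, again without overlap. Such a complete separation downward was seen for 8.18% of the rows tested in wild-type clones and 3.24% in deletion clones. Over the single libraries, both control libraries of mir-425 lay above both ERH libraries in 8 of 8 clones. For mir-191 this held in 5 of 8, the exceptions being clones 34, 42 and 43. The share of all rows with this order was not counted.

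**Figure D1:**
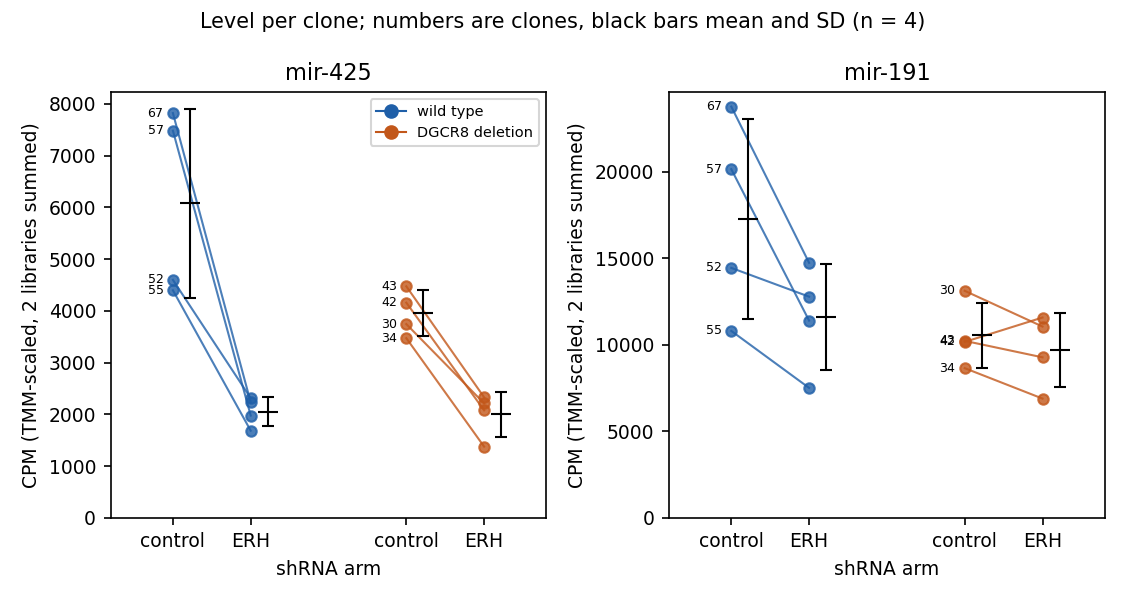
TMM-scaled CPM of mir-425 (left) and mir-191 (right) per clone, with a line from the control to the ERH shRNA sum of each clone, wild type in blue and DGCR8 deletion in orange, and black bars for mean and SD (n = 4). All 8 lines fall for mir-425, from 3472 to 7822 CPM down to 1376 to 2330 CPM, whereas the mir-191 line of clone 42 rises and the arms overlap.

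Tested over the 8 clones with the clone as a block, the log2 fold change of mir-425 was -1.27 ± 0.13 (SE), a 2.41-fold fall (edgeR quasi-likelihood test, adjusted p = 4.13e-08). Of 667 rows, 16.5% were called lower and 36.6% in either direction, and 17 rows had a more negative value than mir-425. A lower value in every clone, as for mir-425, was seen for 10.3% of the rows. In wild-type clones alone the change was -1.50 ± 0.17 (SE, edgeR adjusted p = 1.04e-05), where 31.3% of rows were called and 10.4% were lower. In deletion clones it was -1.02 ± 0.11 (SE, edgeR adjusted p = 0.000205), where 10.3% were called and 6.0% were lower. The direction and the call of mir-425 held in these 3 fits under spike-in and total miRNA scaling, with the weakest value, -0.73, under spike-in scaling in deletion clones.

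**Figure D2:**
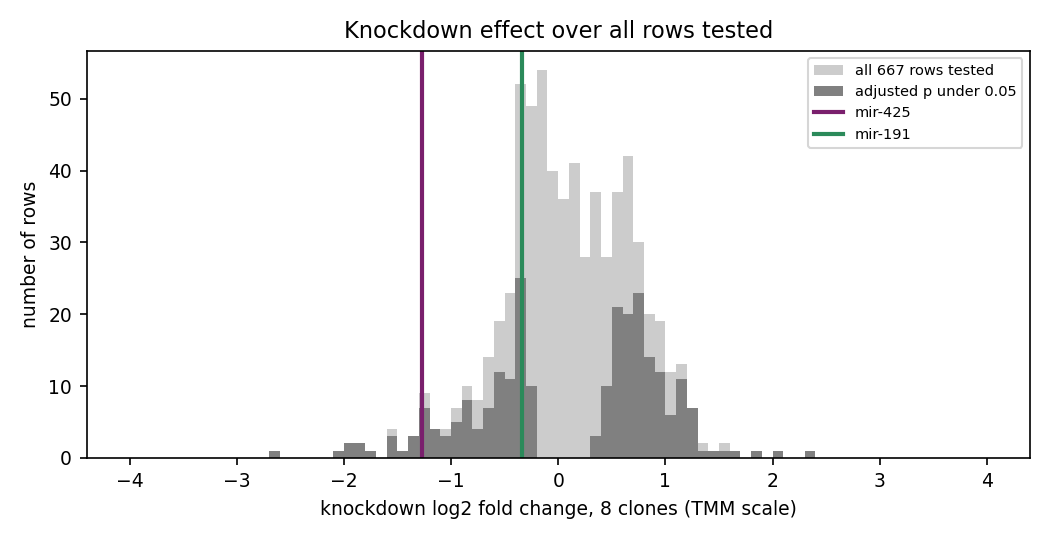
Histogram of the fitted knockdown log2 fold change over 8 clones (x axis, TMM scale) for all 667 rows tested (light) and those with an adjusted p under 0.05 (dark), with the number of rows on the y axis. The purple line of mir-425 at -1.27 stands in the left tail, and the green line of mir-191 at -0.34 stands nearer the centre.

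The row mir-191 gave a smaller value whose sign depends on the scaling. Under control shRNAs it stood at 14444, 10801, 20149 and 23765 CPM in wild-type clones 52, 55, 57 and 67, and under ERH shRNAs at 12781, 7509, 11398 and 14737 CPM. All 4 were lower, as were 20.5% of the rows, but the arms overlapped. In deletion clones 30, 34, 42 and 43 it went from 13119.7, 8651, 10166 and 10228 CPM to 11054, 6891, 11576 and 9275 CPM, lower in 3 of 4 and higher in clone 42. The log2 fold change over all clones was -0.34 ± 0.11 (SE, edgeR adjusted p = 0.0177), and it turned to 0.12 (edgeR adjusted p = 0.582) with spike-in scaling. Without clone 55 or 57 the adjusted p by edgeR was 0.0602 or 0.0534, and without the clone block 0.254.

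By genotype, mir-191 changed by -0.53 ± 0.16 (SE, edgeR adjusted p = 0.0160) in wild-type clones, a call that was lost without clone 55, 57 or 67 (edgeR adjusted p = 0.0711, 0.107 and 0.0701) and without the clone block (0.169 by edgeR). In deletion clones the value was -0.14 ± 0.11 (SE, edgeR adjusted p = 0.437). Under spike-in scaling the 2 values were 0.09 and 0.15. Scaling moves all rows alike: the median log2 fold change of all 667 rows was 0.06 with TMM, 0.33 with total miRNA counts and 0.52 with spike-ins. Relative to spike-in counts, mir-425 was lower in 8 of 8 clones, with a mean log2 change of -0.81 ± 0.23 (SD, n = 8), and mir-191 in 3 of 8, with a mean of 0.12 ± 0.39 (SD, n = 8). The share of all rows lower in every clone was not counted on this scale.

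**Figure D3:**
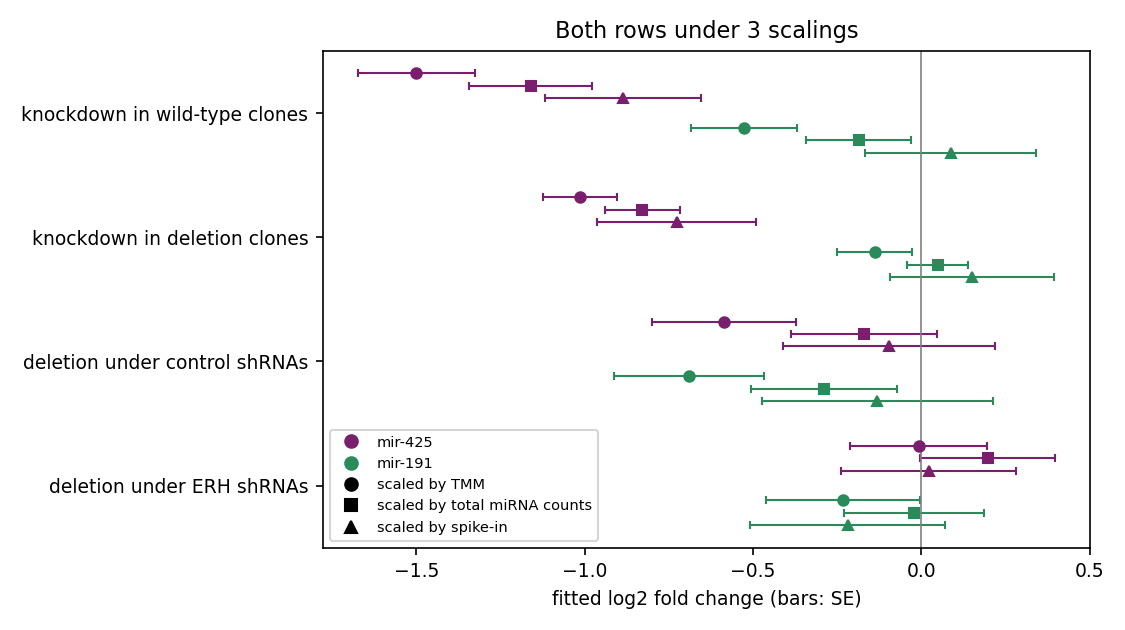
Fitted log2 fold changes (x axis, bars are SE) of mir-425 (purple) and mir-191 (green) in 4 comparisons (rows), scaled by TMM (circles), total miRNA counts (squares) or spike-ins (triangles). In both knockdown comparisons the mir-425 values stay below 0, from -1.50 to -0.73, while the mir-191 values lie on both sides of 0.

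The ratio of mir-425 to mir-191, which no scaling affects, fell under ERH shRNAs in every clone. In wild-type clones 52, 55, 57 and 67 the ratio of summed counts was 0.318, 0.407, 0.371 and 0.329 under control shRNAs and 0.181, 0.224, 0.173 and 0.151 under ERH shRNAs. In deletion clones 30, 34, 42 and 43 it was 0.285, 0.401, 0.409 and 0.437 under control and 0.200, 0.200, 0.179 and 0.251 under ERH shRNAs. The arms did not overlap in either genotype. How often the ratios of other pairs of rows separate likewise was not counted, here or in the comparisons below. Among single libraries the ratio ran from 0.227 to 0.483 under control and from 0.0945 to 0.274 under ERH shRNAs, and the arms overlapped through 2 control libraries, clone 30 with control shRNA 1 at 0.227 and clone 52 with control shRNA 2 at 0.260, although within each of the 8 clones both control libraries lay above both ERH libraries. In clone 30 that gap was narrow, from 0.227 to 0.226. Small RNA ligation favours some sequences over others, so the ratio is one of reads and not of molecules, and its change is what can be compared.

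Over the 8 clones the log2 ratio changed by -0.93 ± 0.22 (SD, n = 8), to 0.527 of its control value, and was lower in 8 of 8 (exact sign-flip permutation test, two-sided, p = 0.00781, the smallest possible, adjusted p = 0.0260 over 10 ratio tests). The 95% interval of that change, from the shifts the exact test does not reject, was -1.11 to -0.73. Leaving out any 1 clone gave values between -0.98 and -0.89. The exact sign-flip p was then the smallest that 7 clones can give, and adjustment over the 10 ratio tests brought it to 0.0521. In wild-type clones the mean change was -0.97 with an SD of 0.16, and in deletion clones -0.88 with an SD of 0.29, each over 4 clones that were all lower. Sign flips of 4 clones cannot give an exact p below 0.125, which both reached.

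**Figure D4:**
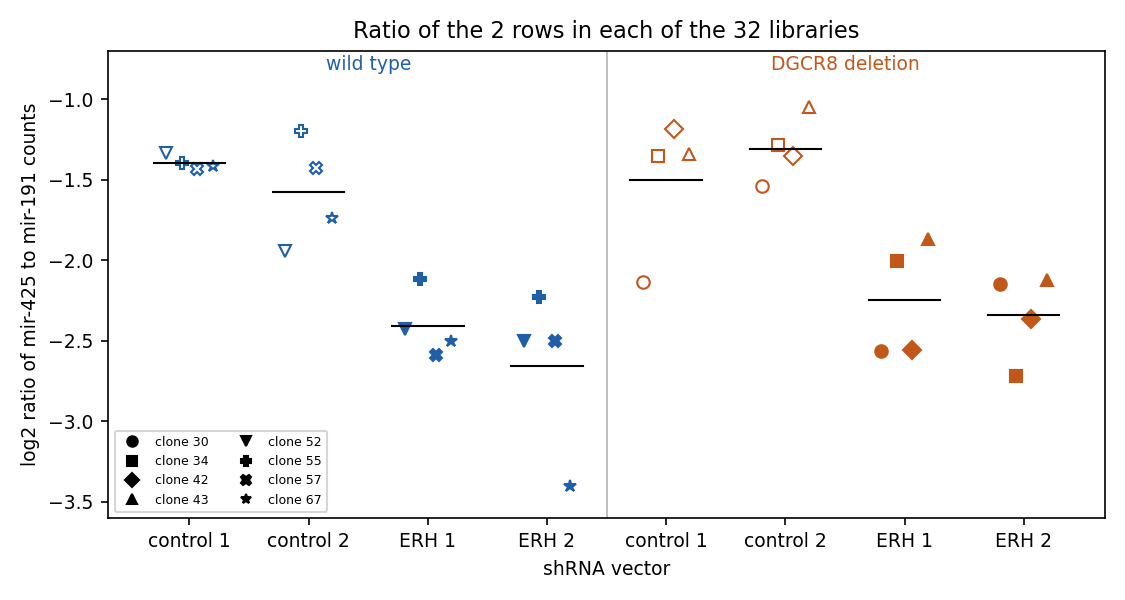
Log2 ratio of mir-425 to mir-191 counts (y axis) in each of the 32 libraries, by genotype and shRNA vector (x axis), with open symbols for control and filled symbols for ERH shRNAs, 1 shape per clone and a line at the mean of 4. Filled symbols lie below open ones within each clone, the lowest being clone 67 with ERH shRNA 2 at -3.40 and the lowest control being clone 30 with control shRNA 1 at -2.14.

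Each ERH shRNA gave the fall by itself against its own control library. ERH shRNA 1 against control shRNA 1 changed the log2 ratio by -0.88 ± 0.34 (SD, n = 8), and ERH shRNA 2 against control shRNA 2 by -1.06 ± 0.37 (SD, n = 8). With both vectors all 8 clones were lower (exact sign-flip test, p = 0.00781, adjusted p = 0.0260 each). For mir-425 the log2 fold changes were -1.22 ± 0.13 (SE, edgeR adjusted p = 3.59e-06) and -1.30 ± 0.17 (SE, edgeR adjusted p = 6.84e-06), where 28.3% and 20.1% of the rows were called and 12.3% and 6.87% were lower. For mir-191 they were -0.34 ± 0.12 (SE, edgeR adjusted p = 0.0421) and -0.25 ± 0.14 (SE, edgeR adjusted p = 0.237), and the first of these calls was lost in 6 of the 8 fits that leave out a clone, with an edgeR adjusted p of up to 0.142. Between the 2 control vectors the mean change of the log2 ratio was 0.01 with an SD of 0.38, and 3 of 8 clones were lower (exact sign-flip p = 0.961, also after adjustment). The members themselves differed by -0.01 and -0.02 between these vectors, where edgeR called 0.0% of 571 rows, with 8.41% at an unadjusted p under 0.05 and 1 call by DESeq2. Single clones moved by -0.61 to 0.60 between the 2 controls, so 1 library of 1 clone does not fix the ratio well.

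The effect of the edited DGCR8 allele was read under control shRNAs, from the same control libraries as above. The 2 miRNAs gave similar fold changes here, and their ratio moved little. Wild-type clones had a mean mir-425 level of 6075 CPM with an SD of 1828, and deletion clones 3962 CPM with an SD of 443, with an overlap between 4397 and 4474 CPM. The log2 fold change of mir-425, -0.59 ± 0.21 (SE), did not pass the threshold (edgeR adjusted p = 0.0587), but did without clone 52 or 55 (edgeR adjusted p = 0.0464 and 0.0298) and with DESeq2 (adjusted p = 0.0468). For mir-191 the mean was 17289.6 CPM (SD 5782) in wild-type clones against 10541 CPM (SD 1867) after the deletion, with clone 55 among the values of the deletion clones. The log2 fold change of mir-191 came to -0.69 ± 0.22 (SE, edgeR adjusted p = 0.0381), where 25.9% of 536 rows were called and 7.09% were lower.

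The mir-191 call rested on most of the clones: it was lost without clone 34, 42, 43, 52, 57 or 67, with an edgeR adjusted p between 0.0535 and 0.205. Under spike-in scaling the values were -0.10 for mir-425 and -0.13 for mir-191, and neither was called. The mean log2 ratio was -1.50 (SD 0.16) for wild type and -1.40 (SD 0.28) for the deletion, which is higher by 0.09 (two-sided exact permutation p = 0.600, adjusted p = 0.667). The 95% interval of this difference, -0.51 to 0.45, does not show that the genotypes are alike. With ERH shRNAs in wild-type clones the change was -0.97 with an SD of 0.16, measured against the same control libraries. These 2 changes were not tested against each other.

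Under ERH shRNAs neither member was called between the genotypes. The mean of mir-425 was 2051 CPM (SD 284) for wild type and 1998 CPM (SD 428) for the deletion, with a log2 fold change of -0.01 ± 0.20 (SE, edgeR adjusted p = 0.985). For mir-191 the means were 11606 CPM (SD 3056) and 9699 CPM (SD 2115), with a log2 fold change of -0.23 ± 0.23 (SE, edgeR adjusted p = 0.621). By edgeR 0.0% of 569 rows were called, with 15.3% at an unadjusted p under 0.05 and, by DESeq2, 5 higher and 3 lower calls. The mean log2 ratio was -2.47 (SD 0.24) for wild type and -2.28 (SD 0.20) for the deletion, higher by 0.19 with a 95% interval of -0.32 to 0.73 (exact permutation p = 0.286, adjusted p = 0.408).

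Whether ERH knockdown acted differently in the 2 genotypes was tested as an interaction. The knockdown change of mir-425 was less negative in deletion clones by 0.56 ± 0.21 (SE, edgeR adjusted p = 0.201), and that of mir-191 by 0.46 ± 0.17 (SE, edgeR adjusted p = 0.210). By edgeR 0.0% of 667 rows were called, with 19% (127 rows) at an unadjusted p under 0.05 and, by DESeq2, 5 higher and 11 lower calls. With spike-in scaling the 2 values were 0.16 and 0.063, and with total miRNA scaling 0.33 and 0.23, none of them called. Without clone 52 both interactions passed with TMM, with edgeR adjusted p of 0.0368 and 0.0497. The ratio differed by 0.10 between genotypes (exact permutation p = 0.600, adjusted p = 0.667), with a 95% interval of -0.37 to 0.60, that is from 0.774-fold to 1.52-fold.

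Deletion clones with ERH shRNAs were also set against wild-type clones with control shRNAs. These are the same libraries as above. The log2 fold change was -1.48 ± 0.23 (SE, edgeR adjusted p = 0.000465) for mir-425 and -0.71 ± 0.23 (SE, edgeR adjusted p = 0.0235) for mir-191, where 46.8% of 553 rows were called and 16.5% were lower. Without clone 34, 57 or 67 the mir-191 call was lost, with an edgeR adjusted p of up to 0.0692, and under spike-in scaling it stood at -0.07. All 4 deletion clones with ERH shRNAs lay below all wild-type controls in mir-425, as for 15.6% of the rows. The log2 ratio differed by -0.78, also without overlap (exact permutation p = 0.0286, the smallest possible, adjusted p = 0.0714). In order of mean TMM-scaled level, mir-425 therefore ran from wild-type control through deletion control to wild-type ERH and deletion ERH. The last pair stood at 2051 and 1998 CPM, within their spread. For mir-191 the order on that scale was wild-type control, wild-type ERH, deletion control and deletion ERH, and neighbours overlapped at each step. Relative to spike-in counts the mir-191 order was wild-type ERH, wild-type control, deletion ERH and deletion control, with means of 1.88, 1.69, 1.61 and 1.54. The mir-425 means were then 0.329 for wild-type ERH and 0.334 for deletion ERH.

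Other pairs of hairpins that share a transcript were set beside this one, each as the less over the more abundant row. The ratio of mir-25 to mir-93, which sit in an intron of MCM7, changed by 0.14 ± 0.20 (SD, n = 8) under ERH shRNAs. That of mir-222 to mir-221, a pair known for repressing the cell-cycle inhibitor p27, changed by 0.04 ± 0.18 (SD, n = 8). That of mir-212 to mir-132, known from neurons, changed by -1.86 ± 0.40 (SD, n = 8). The ratio of mir-425 to mir-191 fell more than the first by -1.06 and more than the second by -0.96, in 8 of 8 clones. It fell less than the third by 0.93, also in 8 of 8. Each difference had the smallest p that the exact sign-flip permutation test can give (p = 0.00781, adjusted p = 0.00781 over 3 tests). The mir-425 and mir-191 pair was chosen with its fold changes in view, so these p-values are not independent evidence that it differs from other pairs. The mir-212 row was scarce, at 0.0011% of the counts on average, and its pair had been seen to change before it was chosen.

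**Figure D5:**
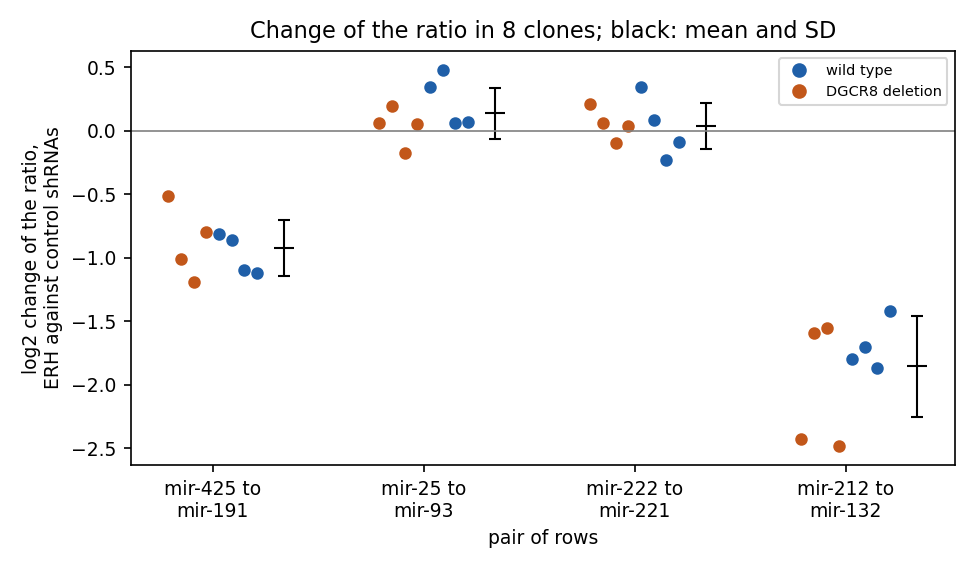
Change of the log2 ratio from control to ERH shRNAs (y axis) in 8 clones for 4 pairs of hairpins that share a transcript (x axis), with wild-type clones in blue, deletion clones in orange and black bars for mean and SD. The mir-425 to mir-191 points lie between -1.19 and -0.51, below all points of the mir-25 and mir-222 pairs and above all points of the mir-212 pair.

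Listed miRNAs of a like kind were read from the same fit. Of 23 clustered hairpins in introns of protein-coding genes, 12 were called lower and 0 higher over the 8 clones, with a median log2 fold change of -0.26 against 0.06 for all 667 rows. A row can hold reads of more than 1 locus, as mir-16 does, so listed rows may also count hairpins elsewhere. The 6 called rows with the largest change were mir-449c at -1.57, mir-502 at -1.34, mir-15b at -1.04, mir-532 at -0.97, mir-98 at -0.73 and mir-27b at -0.58. The edgeR adjusted p of these 6 lay between 4.45e-07 and 0.000890. As within the DALRD3 intron, values differed in the SMC4 intron, which mir-15b shares with mir-16, a row fed by 2 loci that stood at -0.26. In the MCM7 intron they lay closer together, with mir-25 at -0.12 and mir-93 at -0.26. Of 24 lone intronic hairpins 6 were lower and 2 higher, with a median of -0.16, and mir-589 at -1.18 had the largest change (edgeR adjusted p = 3.26e-06). The background share of lower calls was 16.5%. With spike-in scaling the clustered list had 4 lower and 0 higher calls and a median of 0.20, and the lone list 1 lower and 7 higher calls and a median of 0.30. Over all 667 rows that scaling gave 3.3% lower and 34.9% higher calls and a median of 0.52. For the deletion under control shRNAs, 6 of 22 clustered hairpins tested were lower and 0 higher, with a median of -0.47, and 7 of 24 lone ones were lower and 1 higher, with a median of -0.41, against -0.03 for all 536 rows and 7.09% called lower. With spike-in scaling edgeR called 0 rows of either list for the deletion, with 0 and 2 at an unadjusted p under 0.05, where 25% of all rows were called higher and 0.0% lower. The list medians were then 0.025 and 0.044 against 0.42 for all rows.

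Among 9 rows often used as references in miRNA assays, mir-425 varied most and mir-191 next on the TMM scale. This spread spans both shRNA arms and both genotypes, and it was not computed relative to spike-in counts. The pair was also chosen with its fold changes in view. Over the 16 clone sums the SD of log2 CPM was 0.74 for mir-425 and 0.47 for mir-191, against a median of 0.53 over 314 rows with a mean of at least 100 counts. The other 7 had an SD between 0.28 for mir-16 and 0.41 for mir-484. Of the 9 rows 6 were called lower under the knockdown and 0 higher, with a median of -0.26, where 16.5% of all rows were lower. Besides mir-425 and mir-191 these were mir-24, mir-26a, mir-93 and mir-16, between -0.33 and -0.26. With spike-in scaling 1 of the 9 was called lower and 2 higher, where 3.3% of all rows were lower and 34.9% higher, and the median was 0.20 against 0.52 for all rows.

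The rows most like each member over the 16 clone sums were sought among 313 others, as a description, since sums of a clone share its background and libraries share their scaling. For mir-425 they were mir-15b with Pearson's r of 0.89, mir-589 with 0.88, mir-181b with 0.88, mir-23b with 0.83 and mir-192 with 0.83. Their knockdown log2 fold changes lay between -1.95 and -0.53. For mir-191 they were mir-140 with 0.91, mir-345 with 0.88, mir-99b with 0.87, mir-10a with 0.84 and mir-10b with 0.82, with knockdown values between -0.50 and -0.14. The 2 neighbours correlated with each other at 0.71, and mir-191 came 28th in the list of mir-425. Of 8 rows with a hairpin within 1 Mb of the pair, only mir-4793 had enough counts to be tested under the knockdown, with 120 counts in all libraries together and a log2 fold change of 1.82 ± 0.62 (SE, edgeR adjusted p = 0.0244).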

How the data were processed

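Small RNA libraries of 8 293T clones with 4 shRNA vectors each were made with the QIAseq miRNA kit from total RNA mixed with 4 spike-in RNAs, per the labels' protocols. The authors deposited read counts per precursor, named total read count per the file headers, with 1 column per library. SAMtools is named per the submitters' processing notes. The aligner, annotation, genome build, trimming and use of molecular identifiers are not given in the sources used here, so amplification copies may be among the counts. No row lacked a name, and 0 columns lacked a sample.

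The clone was the replicate, and its 2 control and 2 ERH libraries were each added up. Whole-table fits used edgeR 4.0.16 in R 4.3.3 (filterByExpr, TMM over miRNA rows, glmQLFit, glmQLFTest, Benjamini-Hochberg, threshold 0.05), with the clone as a block for within-clone contrasts. Control and ERH sums are paired because, per the labels, the same clone received all 4 vectors, and their deviations from the group means correlated within each clone (r of 0.42 to 0.86 over 314 rows). Log2 CPM used a prior count of 2. Log2 ratios were tested by exact permutation, two-sided, adjusted over 10 tests. Clones of a genotype are separate clones of 1 cell line. P-values for the knockdown, the single vectors and the interaction measure the spread of within-clone changes. Those of the other genotype contrasts measure the spread between clones. Members and lists were chosen with earlier results of these data known. Named rows were the members, per member the 5 rows most alike, neighbours within 1 Mb, and called or at most 6 members of each list. Hairpins were folded with RNAfold 2.7.2. The fits were tested on simulated data. Alternatives were DESeq2 1.42.0, spike-in or total scaling, other filters, single vectors, single libraries, no block, and leaving out each clone.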

Additional observations from a re-analysis of the deposited data

How the results depend on the processing

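Among the recomputed values other than those that leave out a clone, 132 were counted as unchanged, 17 changed sign, 17 lost a call and 4 gained one. Unchanged meant the same direction and the same side of the threshold. For the knockdown ratio in wild-type or deletion clones alone, it meant the same direction and a shift smaller than the SD. Calls of these ratios were not compared. Values are log2 fold changes with edgeR unless another tool is named. With spike-in scaling mir-191 moved to 0.12 under the knockdown in all clones, 0.087 in wild-type and 0.15 in deletion clones, 0.19 for ERH shRNA 1, 0.029 for ERH shRNA 2, -0.13 for the deletion under control shRNAs and -0.067 for deletion with ERH shRNAs against wild-type controls. Total miRNA scaling gave -0.069, -0.19 and 0.048 for the first 3 of these, -0.082 for ERH shRNA 1, -0.29 for the deletion and -0.23 for the last. A mean of at least 100 counts, which tests fewer rows, gave -0.22 in all clones, -0.27 for ERH shRNA 1, -0.54 for the deletion and -0.59 for the last, and no filter gave -0.44 in wild-type clones. Vector 1 and vector 2 alone, with fewer counts, gave -0.70 and -0.73 for the deletion. None of these mir-191 values was called. Without the clone as a block, mir-191 gave -0.37 in all clones, -0.51 in wild-type clones and -0.36 for ERH shRNA 1, all uncalled, while mir-425 kept its call at -1.30 in all clones. For mir-425, the deletion under control shRNAs was called with DESeq2 at -0.68, with each library as its own sample at -0.61 and with vector 1 alone at -0.81, and the interaction with each library as its own sample at 0.55. Under ERH shRNAs, where the deletion gave about 0, mir-425 changed sign to 0.021 (spike-in scaling), 0.20 (total), 0.012 (no filter), 0.0086 (mean of at least 100 counts), 0.025 (each library) and 0.025 (vector 2). The contrast of the control vectors changed sign to 0.12 and 0.025 for mir-425 and to 0.11 and 0.017 for mir-191 with spike-in and total scaling. The ratio for the deletion under control shRNAs turned to -0.11 with vector 1 alone. Apart from the scalings and sample numbers named, the cause was not tested.

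Leaving out 1 clone at a time gave, for the knockdown, -1.32 to -1.18 (mir-425) and -0.40 to -0.28 (mir-191) in all clones, -1.60 to -1.38 and -0.57 to -0.45 in wild-type, and -1.09 to -0.93 and -0.26 to -0.09 in deletion clones. For the deletion it gave -0.78 to -0.40 and -0.92 to -0.46 under control shRNAs, and -0.19 to 0.092 for mir-425 under ERH shRNAs. The interaction ran from 0.36 to 0.73 and from 0.30 to 0.58. Deletion with ERH shRNAs against wild-type controls ran from -0.89 to -0.58 for mir-191, ERH shRNA 1 from -0.46 to -0.26 for mir-191, and the control vectors from -0.075 to 0.059 for mir-425 and from -0.11 to 0.018 for mir-191. The ratio change ran from -0.98 to -0.89 for the knockdown, from -0.94 to -0.81 for ERH shRNA 1, from -1.13 to -0.97 for ERH shRNA 2, from -0.025 to 0.20 for the interaction and from -0.078 to 0.095 for the control vectors. Calls over all rows ranged over the alternatives from 37 to 281 for the knockdown (244 as reported) and from 35 to 223 for the deletion under control shRNAs (139 as reported). Every library held at least 2307 counts of mir-425 and 10797 of mir-191.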
